A study of Mus musculus with 28 samples.

Results

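The comparison set thymic regulatory T (Treg) cells against CD4 single-positive (CD4SP) thymocytes, both from mice lacking CNS3, a conserved enhancer of Foxp3. Members were taken from the sample titles, as the 4 libraries titled KO_Thy_Treg and the 4 titled KO_Thy_mCD4SP, 8 of the 28 libraries of the series. The study measured RNA by sequencing in sorted CD4 T cells of thymus and spleen from male mice aged 6 to 8 weeks, with the enhancer present (Wild type Foxp3-gfp) or deleted (Foxp3-deltaCNS3-gfp). The question here was which differences between the Treg lineage and its CD4SP neighbours stand without the enhancer. The same 2 populations from wild-type mice, 3 libraries each, served as the reference.

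Both genotypes carried a gfp reporter in Foxp3, and no other allele or agent is named. The Treg libraries are labelled regulatory T cells and the CD4SP libraries non-Treg CD4+ single positive. The letter m before CD4SP is not expanded in the labels, and the labels do not describe the sort gates. The design text speaks of 2 littermates, with sorting, RNA extraction, amplification and library preparation done side by side. The number of mice behind each library is not stated, so p-values here measure the spread between libraries, which may be technical.

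Treg cells restrain immune responses, and most of them arise in the thymus from CD4 thymocytes that receive strong T cell receptor (TCR) signals from self antigen together with IL-2. Foxp3, the transcription factor that defines the lineage, is controlled by intronic enhancers, of which CNS3 is known for raising the chance that Foxp3 is switched on in thymic precursors. The Treg programme comprises Foxp3 and its partner factors, a high-affinity IL-2 receptor, inhibitory surface molecules and enzymes that make adenosine. Maturing conventional CD4 cells instead carry the factors of the resting state, such as Tcf7, Lef1 and Satb1.

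Gene counts summed to between 24941507 and 37565947 in the 8 deleted libraries, with 14216 to 15649 genes detected. Levels below are in CPM, the count for every 1000000 counts of a library after TMM scaling, and differences are log2 fold changes, Treg over CD4SP, from edgeR's quasi-likelihood test with Benjamini-Hochberg adjustment. In bulk RNA, fewer cells of a type and less RNA per cell cannot be told apart. CD4SP library 2 stood apart from the other CD4SP libraries. It had the most genes detected, and a summed level of 9 double-positive thymocyte markers of 740 CPM against 264 to 287 CPM in the other CD4SP libraries. Its Il2ra level was 133 CPM, where the others had 17.3 to 21.9 CPM. Calls that end, and printed fold changes that move by over 1.5 times, when this library is left out are given beside the result.

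The labels were checked against markers. The summed level of 5 Treg markers was 5678 to 6246 CPM in the Treg libraries and 293 to 514 CPM in the CD4SP libraries, and all 5 were higher in Treg. The 6 general T cell markers summed to 6811 to 7438 CPM in Treg and 7565 to 9031 CPM in CD4SP. Markers of other cells were present at lower sums and differed between the populations. The 18 myeloid markers summed to 1138 to 1876 CPM in Treg and 532 to 709 CPM in CD4SP, and 16 of them were higher in Treg. S100a9 was lower (log2 fold change -3.74) and S100a8 did not pass (-3.24). Treg libraries 1 and 2 held the highest myeloid sums, 1591 and 1876 CPM. The 14 B cell markers summed to 126 to 142 CPM in Treg and 17.9 to 52.1 CPM in CD4SP, with 10 higher and 1 lower in Treg, while the B cell factor Pax5 had 7 counts in all Treg libraries together and 4 in CD4SP. Of 13 dendritic cell markers tested, 8 were higher in Treg, where the sum over all 14 was 1610 to 1797 CPM against 1226 to 1291 CPM. Much of both sums was Ccr7, also counted among the homing receptors below. It averaged 809 CPM in Treg and 1066 CPM in CD4SP and was lower in Treg (log2 fold change -0.40). The 7 CD8 T cell markers summed to 457 to 540 CPM in Treg and 97.7 to 177 CPM in CD4SP, where Nkg7 and Ccl5 were higher in Treg and Cd8b1 and Klrd1 were lower. The 5 NK cell markers summed to 16.2 to 40.5 CPM in Treg and 0.712 to 18.8 CPM in CD4SP, of which Tyrobp, also a myeloid marker, was higher and Klra8 had 0 counts in both. The 5 erythroid markers summed to 2.11 to 22.6 CPM in Treg and 6.76 to 28.1 CPM in CD4SP, mostly from Hbb-b1 and Alas2, with Hba-a1 at 0 counts in both. The part of these other cells in the results below was not tested.

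**Figure D1:**
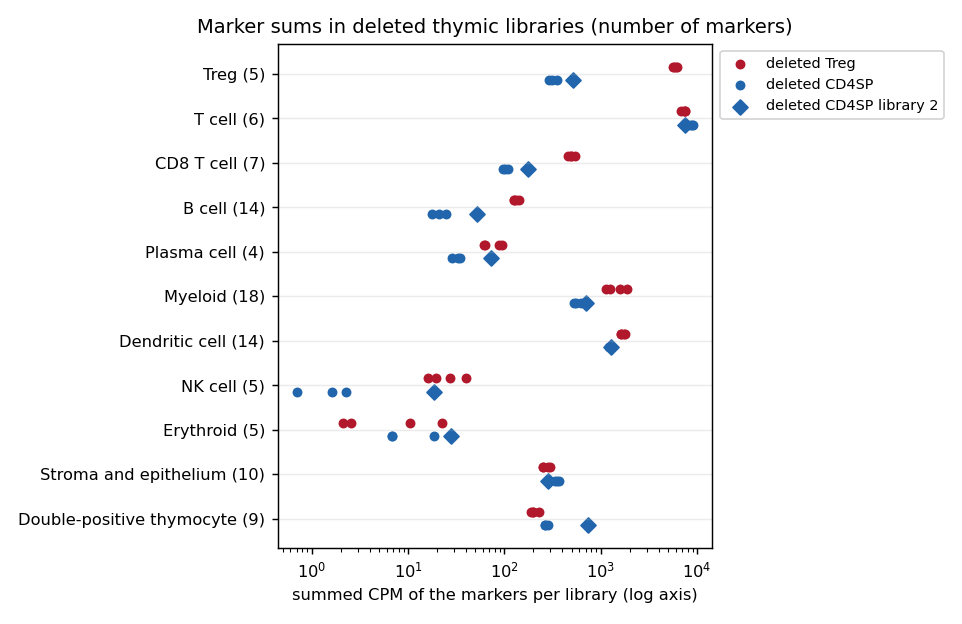
Summed CPM of marker genes for 11 cell types in each deleted thymic library, on a log axis, with red points for Treg, blue points for CD4SP and a blue diamond for CD4SP library 2. The Treg sums of myeloid markers (1138 to 1876 CPM) lie above the CD4SP sums (532 to 709 CPM), and CD4SP library 2 has the highest double-positive thymocyte sum (740 CPM).

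Without CNS3 the 2 populations differed widely. Of 13338 genes tested, 7533 (56.5%) passed at an adjusted p of 0.05, 4002 (30.0%) higher in Treg and 3531 (26.5%) lower. The higher side reached further: 2079 genes (15.6%) were higher by over 1 log2 unit and 572 (4.29%) were lower by as much. The median log2 fold change was 1.07 among the genes called higher and -0.45 among those called lower, while the median over all genes tested was 0.01. In 6063 genes (45.5%) the 4 Treg and the 4 CD4SP libraries did not overlap. Without Treg libraries 1 and 2, which had the highest myeloid sums, 6528 genes passed, and 6548 passed when CD4SP library 2 was left out as well. Counts of list members below are read against the shares of all genes, 30.0% higher and 26.5% lower.

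Foxp3 itself, at chrX:7573644-7595245 on the plus strand of GRCm38, had 585, 446, 532 and 614 CPM in the deleted Treg libraries and 1.27, 1.91, 1.5 and 1.07 CPM in CD4SP. All Treg libraries were far above all CD4SP libraries, a 382-fold difference (log2 fold change 8.58, SE 0.13, edgeR adjusted p = 5.24e-28). The deleted enhancer is intronic and the counts are of the whole gene, so this level does not check the deletion. The populations are defined as Treg and non-Treg, so the Foxp3 difference is a check of the sort and no finding.

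All 28 Treg lineage genes tested were higher in deleted Treg cells than in deleted CD4SP cells, each by over 1 log2 unit, with a median log2 fold change of 4.79. In wild-type mice all 28 were higher too, with a median of 5.0. Among transcription factors, Ikzf2 (Helios) had 1583, 2005, 1552 and 1654 CPM in Treg and 91.5, 148, 93.4 and 74.3 CPM in CD4SP (log2 fold change 4.06, SE 0.16, edgeR adjusted p = 8.28e-19). Its relative Ikzf4 (Eos) had 359 to 477 CPM in Treg and 60.4 to 68.9 CPM in CD4SP, a 6.50-fold difference. Plagl1, a zinc finger factor, had 29.4 to 30.7 CPM in Treg and at most 0.361 CPM in CD4SP, with a log2 fold change of 7.59, and 8.34 without CD4SP library 2. None of these 3 factors overlapped between the populations.

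The alpha and beta chains of the IL-2 receptor also separated the populations. Il2ra, the alpha chain (CD25), had 1819, 1732, 1653 and 1980 CPM in Treg. In CD4SP it had 21.6, 133, 21.9 and 17.3 CPM, so library 2 lay well above the other CD4SP libraries and still far below every Treg library. The log2 fold change was 5.22 (SE 0.41, edgeR adjusted p = 1.21e-11), and 6.47 without CD4SP library 2. The labels do not say whether CD25 was part of the sort gate. For Il2rb, the beta chain, the Treg libraries had 1770, 1382, 1508 and 1727 CPM and the CD4SP libraries 68.8 to 79.5 CPM, a 21.4-fold difference. Socs2, a target of IL-2 signalling, had 49.7 to 70.9 CPM in Treg and 0.274 to 0.794 CPM in CD4SP.

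Surface receptors of the Treg programme followed. Ctla4, which removes co-stimulatory ligands from antigen-presenting cells, had 653, 712, 628 and 592 CPM in Treg and 36.1, 43.9, 24.1 and 22.3 CPM in CD4SP (log2 fold change 4.36, SE 0.14). Tnfrsf4 (OX40), Tnfrsf18 (GITR) and Tnfrsf9 (4-1BB), co-stimulatory members of the TNF receptor superfamily, were 13.5-fold, 6.87-fold and 12.9-fold higher. Nrp1, a semaphorin co-receptor, had 841 to 1181 CPM in Treg and 18.3 to 43.4 CPM in CD4SP. Tigit, an inhibitory receptor, had 152 to 179 CPM against 0.192 to 2.20 CPM, a log2 fold change of 7.53, and 8.37 without CD4SP library 2. Icos had the smallest difference on the list, 592 to 668 CPM in Treg and 277 to 332 CPM in CD4SP (log2 fold change 1.09, SE 0.07), and its libraries did not overlap either.

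Effector molecules of the lineage showed low levels in CD4SP. Lrrc32 (GARP), which holds latent TGF-beta on the Treg surface, at chr7:98489283-98502181 on the plus strand, had 366, 307, 298 and 377 CPM in Treg and 1.47, 1.84, 1.12 and 1.21 CPM in CD4SP (log2 fold change 7.91, SE 0.14, edgeR adjusted p = 2.46e-26). Nt5e and Entpd1, the ectoenzymes CD73 and CD39 that make adenosine from ATP, were 19.9-fold and 80.5-fold higher in Treg. For Entpd1 the log2 fold change was 6.33, and 7.09 without CD4SP library 2. Ebi3, a subunit of IL-35 and IL-27, had 30.1 to 44.8 CPM in Treg, and in CD4SP 0 counts in library 1, 0.613 CPM in library 2 and under 0.05 CPM in libraries 3 and 4. Il10, an inhibitory cytokine, had 3.83 to 6.83 CPM in Treg. In CD4SP it had 2 counts over 4 libraries, and the ratio of library-scaled counts was 302, with an exact 95% counting interval of 83.1 to 2495. Such intervals cover counting error only.

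**Figure D2:**
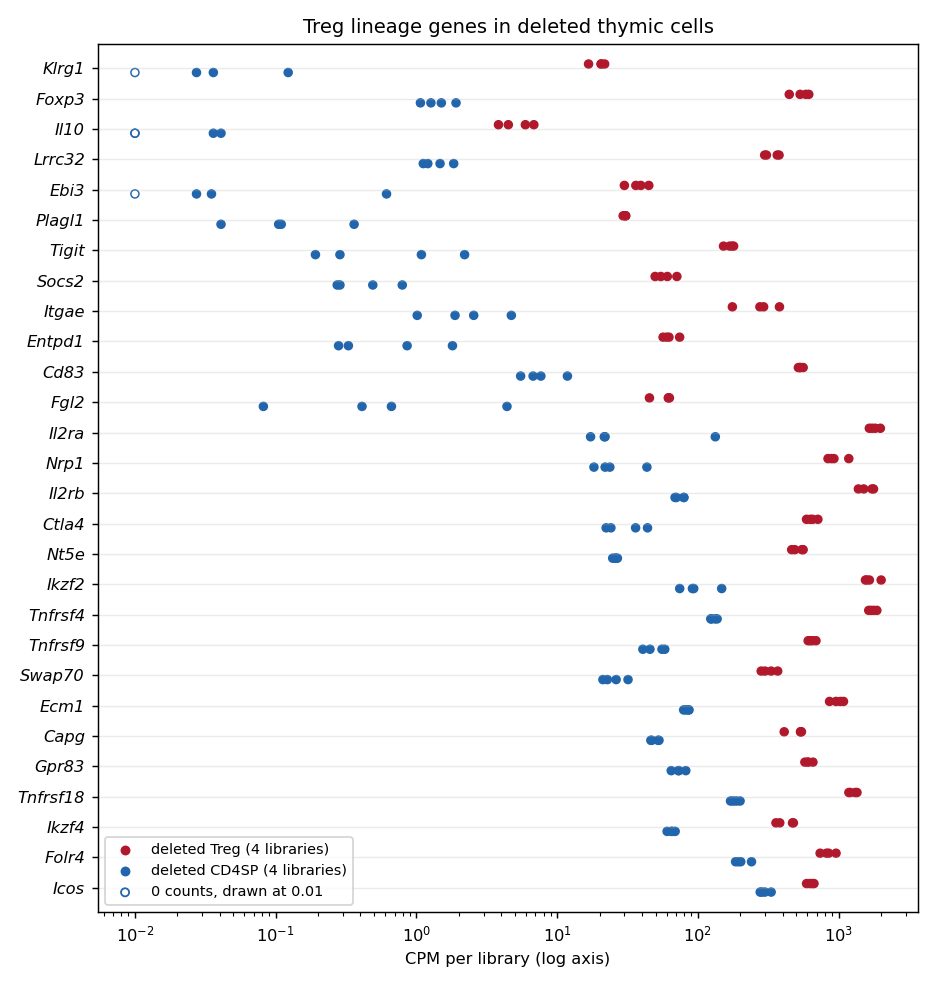
CPM of each of the 28 Treg lineage genes in every deleted thymic library, on a log axis, with red points for the 4 Treg libraries and blue points for the 4 CD4SP libraries, ordered by fold change. In every gene the 4 red points lie to the right of the 4 blue points. Open circles are libraries with 0 counts, drawn at 0.01.

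Promoter sequences were looked at for letters of the NF-kB motif, because the NF-kB subunit c-Rel, encoded by Rel, is a known activator of Foxp3 that binds CNS3. The windows came from RefSeq (GRCm38.p6), cover 250 bases before to 50 bases after a transcript start, and matched 17 of the 28 lineage genes in 20 windows. The NF-kB motif was searched on both strands and matches are printed in capitals. A match was present in 4 of the 20 windows, those of Il2ra, Ebi3, Plagl1 and the second start of Tnfrsf9, against 5.71% of 12521 windows of all genes tested. None of 7 windows of the largest rises and none of 6 windows of the largest falls held it. AP-1 (TGANTCA) was in 3 of the 20 windows against 5.24% of all, RUNX (TGTGGTT) in 1 against 4.0%, and forkhead (TGTTTAC) in 1 against 2.62%, each on both strands. A match is a description of letters and shows no binding. The 250 bases before the start are printed for the 4 genes with a match and for Foxp3, which has none in this window.
Il2ra, chr2:11642542-11642791, plus strand: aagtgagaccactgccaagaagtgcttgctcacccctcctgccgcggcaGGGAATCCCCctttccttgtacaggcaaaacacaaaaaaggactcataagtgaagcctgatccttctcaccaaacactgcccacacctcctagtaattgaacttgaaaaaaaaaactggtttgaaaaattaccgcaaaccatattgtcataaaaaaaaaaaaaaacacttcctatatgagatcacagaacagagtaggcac
Ebi3, chr17:55952373-55952622, plus strand: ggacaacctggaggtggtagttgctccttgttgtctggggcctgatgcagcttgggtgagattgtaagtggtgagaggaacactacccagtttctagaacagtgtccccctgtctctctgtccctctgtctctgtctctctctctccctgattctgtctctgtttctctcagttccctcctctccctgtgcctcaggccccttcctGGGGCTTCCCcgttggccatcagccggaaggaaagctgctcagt
Plagl1, chr10:13090582-13090831, plus strand: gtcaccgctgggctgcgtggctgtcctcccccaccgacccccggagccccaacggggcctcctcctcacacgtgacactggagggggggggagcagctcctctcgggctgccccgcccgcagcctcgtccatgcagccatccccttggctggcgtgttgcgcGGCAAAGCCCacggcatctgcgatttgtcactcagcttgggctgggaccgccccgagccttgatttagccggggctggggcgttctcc
Tnfrsf9, chr4:150927749-150927998, plus strand: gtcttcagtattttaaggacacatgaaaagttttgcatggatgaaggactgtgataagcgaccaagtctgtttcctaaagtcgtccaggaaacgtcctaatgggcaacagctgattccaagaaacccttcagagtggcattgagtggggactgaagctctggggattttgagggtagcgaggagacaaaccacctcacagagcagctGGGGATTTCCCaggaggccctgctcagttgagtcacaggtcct
Foxp3, chrX:7579426-7579675, plus strand: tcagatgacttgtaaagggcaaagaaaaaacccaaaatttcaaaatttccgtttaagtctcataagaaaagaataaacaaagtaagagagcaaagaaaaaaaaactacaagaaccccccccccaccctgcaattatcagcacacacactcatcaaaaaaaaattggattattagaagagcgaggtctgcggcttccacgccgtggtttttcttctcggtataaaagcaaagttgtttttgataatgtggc
In Tnfrsf9 the capitals hold 2 overlapping matches. The 4 genes with a match had log2 fold changes of 5.22 (Il2ra), 7.82 (Ebi3), 7.59 (Plagl1) and 3.69 (Tnfrsf9). Without CD4SP library 2 they were 6.47 for Il2ra, 8.34 for Plagl1 and 10.48 for Ebi3, the last fitted on few CD4SP counts.

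The largest rises among well-detected genes, at least 8 CPM in the higher group with no overlap between libraries, were led by genes that are near absent from CD4SP. Beside Foxp3 they were Gpr15, Kcnj15, Tff1, Gbp1, Ptrf, Il1r2, Klrg1, Dnahc7a, Atp6v0d2, Hepacam2 and Spag16. Gpr15, a receptor that guides T cells to the large intestine, had 38.9, 22.7, 25.1 and 23.0 CPM in Treg and 3 counts in CD4SP, all in library 2. Its ratio of library-scaled counts was 1081, with a counting interval of 369 to 5242. Kcnj15, an inward-rectifier potassium channel, had 2 counts in CD4SP and a ratio of 1147 (317 to 9476), and the trefoil peptide Tff1 had 3 counts and a ratio of 993 (339.5 to 4818). Il1r2, a decoy receptor that binds IL-1 without signalling, had 229, 203, 206 and 203 CPM in Treg and 0.164, 1.37, 0.315 and 0.137 CPM in CD4SP. Its log2 fold change was 8.76, and 9.999 without CD4SP library 2. Klrg1, an inhibitory lectin-like receptor, had 16.7 to 21.8 CPM in Treg and 5 counts in CD4SP, a ratio of 471 (201.5 to 1451). Ptrf (Cavin1), a coat protein of caveolae, had 41.2 to 92.0 CPM in Treg and at most 0.361 CPM in CD4SP. Hepacam2, an adhesion molecule of the immunoglobulin family, had 9.05 to 11.4 CPM in Treg and 3 counts in CD4SP, all in library 4.

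The largest falls were smaller in fold. Their higher CD4SP levels follow from the selection, which asked for at least 8 CPM in the higher group, here CD4SP. They were Elovl7, Ggt5, Pdlim4, Lypd6b, Hs3st3b1, Atp8b4, Pde3b, Vipr1, Slc16a5, Gpr97, Ntrk3 and Mctp2. Elovl7, which lengthens fatty acids, had 0.465, 0.143, 0.439 and 0.479 CPM in Treg and 19.1, 12.3, 21.6 and 22.8 CPM in CD4SP, 48.5-fold lower in Treg. Ggt5, which cleaves gamma-glutamyl bonds of leukotrienes, had 0.250 to 0.998 CPM in Treg and 30.1 to 41.1 CPM in CD4SP. Pde3b, a phosphodiesterase that breaks down cyclic AMP, had 5.68, 8.23, 6.74 and 5.91 CPM in Treg and 160, 152, 198 and 161 CPM in CD4SP (log2 fold change -4.66, SE 0.14). Hs3st3b1, a heparan sulfate sulfotransferase, had 3.25 to 6.62 CPM in Treg and 130 to 207 CPM in CD4SP. Vipr1, the receptor for vasoactive intestinal peptide, was 24.2-fold lower and the neurotrophin receptor Ntrk3 19.1-fold lower. Atp8b4, a phospholipid flippase, was 28.5-fold lower in Treg.

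Of 16 tested genes of the IL-2 receptor, JAK and STAT5 axis, 11 were higher in deleted Treg and 3 lower, with a median of 0.52. Beyond the receptor chains, Cish, a feedback inhibitor induced by STAT5, had 398 to 440 CPM in Treg and 28.9 to 35.9 CPM in CD4SP (log2 fold change 3.74, SE 0.08). Stat5a was 3.06-fold higher, at 183 to 232 CPM against 62.5 to 71.7 CPM, and Stat5b had a log2 fold change of 0.63. The lower members were Il2rg, the shared gamma chain (-0.29), Jak1 (-0.41) and Il7r, the IL-7 receptor of resting cells (-0.60). Il2, the cytokine, had a mean of 0.0566 CPM in Treg and 0.0641 CPM in CD4SP and did not pass the test.

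Genes induced early by TCR signalling stood mostly higher in Treg, 23 of 30 against 2 lower, with a median of 1.25. Rgs1, a brake on chemokine receptor signals, had 857, 981, 860 and 822 CPM in Treg and 38.0, 37.5, 26.2 and 22.9 CPM in CD4SP. Bhlhe40, a transcriptional repressor, had 207, 214, 162 and 206 CPM in Treg and 2.98 to 7.97 CPM in CD4SP. Dusp4 and Spry1, inhibitors of the MAP kinase pathway, were 36.7-fold and 38.1-fold higher. For Spry1 the log2 fold change was 5.25, and 6.00 without CD4SP library 2, which held 1.08 CPM. Among nuclear factors, Nr4a1 was at 267 to 338 CPM against 118 to 131 CPM (log2 fold change 1.31), Irf4 had a log2 fold change of 1.54 and Batf one of 1.38. Egr1 (-0.27) and Dusp6 (-0.78) were the 2 lower members, Egr1 no longer past the test without Treg libraries 1 and 2 (-0.13, edgeR adjusted p = 0.318), and Egr3, Nab2, Dusp2, Ier2 and Fos did not pass.

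The TCR complex and its proximal signalling molecules pointed the other way, with 15 of 30 lower, 7 higher and a median of -0.22. Themis, a regulator of TCR signal strength in thymocytes, had 101.2, 117, 96.9 and 116 CPM in Treg and 378, 398, 367 and 374 CPM in CD4SP (log2 fold change -1.81, SE 0.08, edgeR adjusted p = 3.98e-17). Pag1, an adaptor that recruits the inhibitory kinase Csk, was 2.95-fold lower. Cd3g had 983 to 1149 CPM in Treg and 1901 to 2069 CPM in CD4SP, with Cd3d (-0.45), Cd3e (-0.27), Cd247 (-0.80), Lck (-0.49) and Lat (-0.84) lower as well. The higher members included Ubash3b, a phosphatase that limits TCR signals (log2 fold change 1.14), the ubiquitin ligase gene Cblb (0.57), and Cd6 (0.43).

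Of 28 NF-kB genes, 17 were higher, 7 lower and 4 not past the test, with a median of 0.39. All 5 subunits were higher. Rel had 66.0, 68.5, 69.4 and 81.9 CPM in Treg and 21.6, 22.6, 23.3 and 20.8 CPM in CD4SP, a 3.24-fold difference. Nfkb2 was 3.42-fold higher, and Relb (1.01), Nfkb1 (0.75) and Rela (0.26) had smaller log2 fold changes. Rela was no longer past the test without CD4SP library 2 (0.18, edgeR adjusted p = 0.0769). Among inhibitors, Nfkbia was higher at 1.01, Nfkbie at 0.94 and the ubiquitin editor Tnfaip3 at 1.68. The lower members included Tnip2, Map3k14, Chuk, Malt1, Prkcq and Cyld, with log2 fold changes of -0.25, -0.50, -0.33, -0.74, -0.25 and -0.37. Cyld and Tnip2 are inhibitors as well, and Tnip2 did not pass without Treg libraries 1 and 2 (-0.21, edgeR adjusted p = 0.108). Malt1 and Prkcq act between the TCR and the IkB kinase, and Chuk is a subunit of that kinase.

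Within the TNF receptor superfamily 14 of 19 tested genes were higher and 2 lower, with a median of 1.22. Tnfrsf1b (TNFR2), a receptor known for its high level on Treg cells, had 512, 358, 386 and 484 CPM in Treg and 70.5 to 81.2 CPM in CD4SP (log2 fold change 2.50, SE 0.10). Tnfrsf1a, the other TNF receptor, was lower (-0.75), as was Tnfrsf14 (-0.66). Tnfrsf25, the death receptor DR3, had a log2 fold change of 1.16 and Fas one of 0.86.

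Co-stimulatory and inhibitory receptors were higher in 14 of 19 and lower in 3, with a median of 1.66. Pdcd1 (PD-1) had 299 to 351 CPM in Treg and 35.4 to 52.6 CPM in CD4SP. Cd80, a ligand of CD28 and CTLA-4, had 12.9 to 16.2 CPM in Treg and 7 counts in all CD4SP libraries together, a ratio of 240.1 (116 to 598). Cd28 itself was lower, at 606 to 684 CPM against 996 to 1082 CPM (log2 fold change -0.71, SE 0.05). Cd40lg, the ligand by which helper cells engage B cells, was lowest in relative terms, with 20.2, 18.9, 20.1 and 23.2 CPM in Treg and 131, 98.1, 146 and 135 CPM in CD4SP. The list holds Cd80 and Cd86, which antigen-presenting cells also express, and the myeloid and dendritic marker sums above moved the same way. Their part in these 2 genes was not tested.

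Suppressive and effector molecules had the highest median of the 23 lists, 5.16, with 16 of 19 higher and 1 lower. The list shares members such as Ctla4, Lrrc32 and Entpd1 with the lineage genes. Members outside the lineage list include Gzmb, granzyme B, at 29.1 to 39.0 CPM in Treg and 0 to 2.96 CPM in CD4SP, and Itgb8, which activates latent TGF-beta, at 39.4, 46.6, 44.5 and 57.1 CPM against 0.695, 1.55, 0.595 and 0.329 CPM. Gzma, granzyme A, was the lower member (-2.19), a call that rested on CD4SP library 2: without it the log2 fold change was 0.10 (edgeR adjusted p = 0.767). The value for Gzmb was 5.39, and 8.30 without that library. Of the rest, Tgfb1 (log2 fold change 0.31) and Prf1, perforin (-0.41), did not pass, and Prf1 passed without CD4SP library 2 (-0.51, edgeR adjusted p = 0.0456). Il1rn and Lgals3, which myeloid cells also express, were higher by 4.18 and 1.61 on the log2 scale beside the higher myeloid sum, whose part was not tested, and Il1rn by 7.77 without CD4SP library 2.

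TGF-beta genes went both ways, 9 of 20 higher and 8 lower, with a median of 0.22. Receptors diverged: Tgfbr1 was higher (log2 fold change 2.21), while Tgfbr2 (-1.09) and the co-receptor Tgfbr3 were lower. Tgfbr3 had 13.6, 12.8, 11.7 and 15.7 CPM in Treg and 141, 115, 147 and 153 CPM in CD4SP (log2 fold change -3.36, SE 0.11). The signal transducers Smad2, Smad3 and Smad4 and the inhibitory Smad7 were all lower, by -0.19 to -0.51 on the log2 scale. Smad3 did not pass without Treg libraries 1 and 2 (edgeR adjusted p = 0.079). Tgif1, a repressor of SMAD target genes, was 6.29-fold higher.

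Genes of the resting and naive state were lower in 16 of 23 and higher in 2, with a median of -0.40. Tcf7, the factor TCF-1, had 532, 469, 449 and 478 CPM in Treg and 1497, 1419, 1490 and 1460 CPM in CD4SP (log2 fold change -1.60, SE 0.07, edgeR adjusted p = 6.70e-18). Lef1 had 424 to 503 CPM against 1027 to 1254 CPM, and Satb1, a chromatin organiser, 241 to 284 CPM against 730 to 765 CPM. Igfbp4 had the largest fall on the list, at 21.6, 23.2, 29.1 and 27.7 CPM in Treg and 420, 280, 340 and 376 CPM in CD4SP. Cd55, which protects cells from complement, was among the higher members (log2 fold change 0.22), and did not pass without CD4SP library 2 (0.13, edgeR adjusted p = 0.218).

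Transcription factors of the T lineage and CD4 fate were lower in 13 of 18 and higher in 4, with a median of -0.51. Ikzf1 (Ikaros) had 451, 447, 401 and 488 CPM in Treg and 1241, 1123, 1325 and 1356 CPM in CD4SP. Zbtb7b (ThPOK), the factor that fixes CD4 fate, was lower (-0.82), as were Runx1 (-0.46), Runx3 (-1.19) and Bcl11b (-0.69). The 4 higher factors were Gata3 (1.18), Ikzf3 (Aiolos, 1.39), Myb (0.98) and Tox (0.68).

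Helper lineage factors, cytokines and cytokine receptors were higher in 20 of 28 tested and lower in 3, with a median of 1.46. Maf had 59.3, 67.5, 78.1 and 76.6 CPM in Treg and 3.92, 5.77, 5.32 and 2.82 CPM in CD4SP, a 15.9-fold difference. Rora was 8.59-fold higher, at 43.0 to 50.9 CPM against 4.54 to 6.79 CPM, and Prdm1 (Blimp-1) had a log2 fold change of 2.27. Among receptors, Il1rl1 (ST2), which binds IL-33, had 11.3 to 15.2 CPM in Treg and 9 counts in CD4SP. The lower members besides Cd40lg were the cytokines Il4 (-2.74) and Il21 (-2.90), both under 1 CPM on average in either population. Without CD4SP library 2, Il4 was at -2.03 (edgeR adjusted p = 0.0389), and it did not pass when Treg libraries 1 and 2 were left out as well (0.0928). Il21 was at -3.82 without Treg libraries 1 and 2.

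Chemokine, egress and homing receptors were higher in 14 of 21 and lower in 5, with a median of 1.37. Ccr6, the receptor for CCL20, had 413, 316, 371 and 389 CPM in Treg and 2.0, 5.77, 2.38 and 2.33 CPM in CD4SP (log2 fold change 6.91, SE 0.19, edgeR adjusted p = 1.02e-21). Cxcr3, a receptor of inflamed tissue, had 53.5 to 63.8 CPM against 1.31 to 4.47 CPM, and Cxcr5, which leads cells to follicles, 51.4 to 109 CPM against 2.27 to 3.39 CPM. The 5 lower members were Ccr7, Ccr9, Gpr183, S1pr1 and S1pr4, at -0.40, -0.85, -0.84, -0.53 and -0.30. S1pr4 did not pass without Treg libraries 1 and 2 (-0.20, edgeR adjusted p = 0.112). Ccr1 and Cx3cr1, also expressed by myeloid cells, were higher by 3.48 and 3.44 on the log2 scale, Ccr1 by 6.71 without CD4SP library 2, and the part of the myeloid markers in these 2 was not tested.

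Integrin subunits were higher in 9 of 13 and lower in 1, with a median of 0.49. Itgae (CD103), the alpha chain that binds E-cadherin, had 293, 176, 276 and 380 CPM in Treg and 1.88, 4.73, 2.55 and 1.01 CPM in CD4SP. Itgb1 was 4.54-fold higher, and Itgb3, the beta chain of the vitronectin receptor, was the lower member, at 33.8 to 53.0 CPM against 219 to 284 CPM.

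BCL2 family genes were higher in 13 of 16 tested and lower in 1, with a median of 0.84, and both arms of the family took part. Of the survival members, Bcl2l1 (BCL-XL) had 176, 168, 185 and 181 CPM in Treg and 49.2, 54.8, 53.7 and 53.1 CPM in CD4SP, Bcl2 a log2 fold change of 0.49 and Mcl1 one of 0.24. Bcl2a1b was 4.51-fold higher, with the caution that its near-identical copies Bcl2a1a and Bcl2a1d can share or lose reads. Of the killing members, Bid was 2.64-fold higher and Bax had a log2 fold change of 0.57. Bcl2l11 (BIM), the main mediator of deletion of self-reactive thymocytes, had 48.2, 55.8, 55.6 and 54.2 CPM in Treg and 48.2, 49.0, 48.2 and 44.3 CPM in CD4SP. Those groups touched, and the log2 fold change of 0.17 (SE 0.08) did not pass (edgeR adjusted p = 0.0803).

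Interferon-stimulated genes were lower in 22 of 36 and higher in 5, with a median of -0.34. Oas2, a sensor of double-stranded RNA, had 9.49, 11.8, 13 and 15.3 CPM in Treg and 104, 95.02, 157 and 132 CPM in CD4SP, 9.83-fold lower in Treg. Ddx58 (RIG-I), Ifit1, Oasl2 and Rsad2 had log2 fold changes of -0.80, -0.86, -1.11 and -1.06. The guanylate-binding proteins Gbp3 (7.14-fold) and Gbp5 (3.53-fold) stood higher, while Gbp4 (-0.81) and Gbp2 (-0.27) stood lower.

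Among PI3K and mTOR regulators 5 of 24 were higher and 10 lower, with a median of -0.12. Phlpp1, a phosphatase that switches off AKT, had 116, 91.8, 91.7 and 104 CPM in Treg and 4.54, 5.12, 4.51 and 4.0 CPM in CD4SP, 22.3-fold higher. Pik3ip1, an inhibitor of PI3K, was 2.53-fold lower. Pdk1, counted among the lower members, was 3.26-fold lower. That symbol stands for a pyruvate dehydrogenase kinase and not for the PI3K pathway kinase Pdpk1. DNA methylation and demethylation enzymes gave 3 higher and 3 lower of 12, close to the shares of all genes. Tet1, which oxidises 5-methylcytosine, had 29.3, 33.2, 31.6 and 40.5 CPM in Treg and 109, 96.4, 119 and 105.1 CPM in CD4SP. Gadd45b was 7.46-fold higher.

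Glycolysis enzymes were higher in 13 of 19, with a median of 0.44, and the other 6 did not pass. Eno3, an enolase, had 186, 206, 181 and 177 CPM in Treg and 16, 15.5, 12.3 and 14.5 CPM in CD4SP. The glucose transporter Slc2a3 was 2.53-fold higher and Tpi1 2.38-fold higher. Gapdh, Eno1 and Pgam1 read below 5 CPM on average, and such genes with many near-identical copies are uncertain in these counts. Cholesterol synthesis and uptake genes were higher in 13 of 20, with a median of 0.34, and the other 7 did not pass. The 4 with the smallest p-values were Sc5d (1.79-fold), Insig1 (2.19-fold), Fdft1 (1.66-fold) and Mvd (1.70-fold).

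Genes around Foxp3 on the X chromosome were higher in 11 of 23 tested and lower in 3, with a median of 0.32. Plp2 had 48.5, 58.8, 61.1 and 51.7 CPM in Treg and 12.6 to 15.4 CPM in CD4SP, a 4.02-fold difference. Ppp1r3f, at chrX:7557296-7574283 on the minus strand, was 2.86-fold higher. Its annotated start overlaps the start of Foxp3 on the opposite strand, and the labels do not say whether reads were counted by strand. Reads of these 2 genes may therefore not be fully separated. Pim2, a survival kinase, was 2.10-fold lower, with 30.3 to 42.4 CPM against 61.8 to 93.1 CPM.

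Counts for immature thymocyte genes and, to a smaller extent, cell cycle genes moved when CD4SP library 2 was left out. Of 14 immature thymocyte genes, 9 were lower and 2 higher in Treg, with a median of -1.16. Without library 2, 5 were lower and 3 higher, with a median of -0.17. In wild-type cells 2 were lower and 2 higher, with a median of 0.39. Rag1, a recombinase subunit, had 4.93, 2.61, 1.88 and 2.98 CPM in Treg and 2.25, 47.1, 4.27 and 2.46 CPM in CD4SP, so that library 2 alone set it apart. Its log2 fold change was -2.17 with library 2 and 0.06 without it (edgeR adjusted p = 0.926). Dntt, which adds bases at receptor joints, had 33.0, 15.6, 17.3 and 16 CPM in Treg and 52.3, 308.5, 41.3 and 38.5 CPM in CD4SP, and its log2 fold change was -2.42 with library 2 and -1.10 without it. Cd8b1 was at -1.20 with the library and -1.10 without it, and Sox4 at -1.11 and -1.01. Of 36 cell cycle genes, 14 were lower and 5 higher, with a median of -0.35. When library 2 was left out, 10 were lower and 8 higher, with a median of -0.13. The wild-type comparison, which does not hold this library, had 23 of the 36 lower and 2 higher, with a median of -0.66. Top2a, a mitotic topoisomerase, had 171, 222, 166 and 160 CPM in Treg and 310, 487, 318 and 336 CPM in CD4SP, with no overlap.

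**Figure D3:**
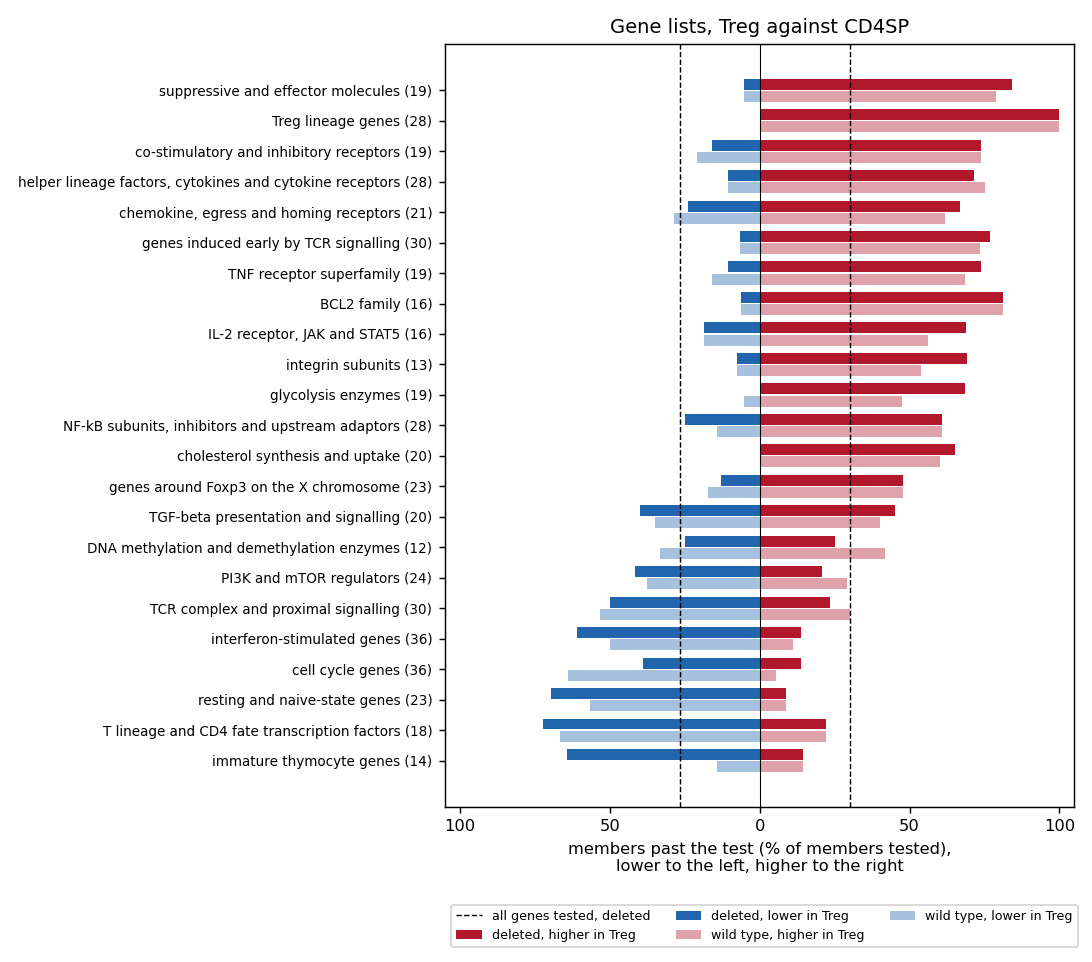
Share of tested members of 23 gene lists that passed the edgeR test of Treg against CD4SP, with bars to the right for genes higher in Treg and bars to the left for genes lower. Dark bars are deleted libraries and light bars wild-type libraries, red for higher and blue for lower, with dashed lines at the shares among all genes tested in the deleted comparison (30.0% and 26.5%), and the number of members tested stands in brackets. All 28 Treg lineage genes are higher in both genotypes, and the immature thymocyte bars differ most between genotypes.

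The wild-type comparison, which shares no library with the deleted one, called 6447 genes (48.3%), 3568 (26.8%) higher and 2879 (21.6%) lower in Treg. Of the 3568, 3028 (84.9%) were called higher in deleted cells too, 8 were called lower and 532 were not called. Of the 2879, 2307 (80.1%) were called lower, 4 higher and 568 not called. Genes past the wild-type test by over 1 log2 unit numbered 1948 (14.6%) higher and 455 (3.41%) lower. Among these, 1799 of 1948 higher genes (92.4%) and 416 of 455 lower genes (91.4%) had the same call. Seen from the deleted side, 75.7% of the 4002 higher and 65.3% of the 3531 lower genes had the same call in wild type, where 3 libraries a group stood against 4. Across the 13338 genes, which are not independent replicates, the 2 sets of log2 fold changes had a Pearson correlation of 0.895 and a Spearman correlation of 0.833, as a description.

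**Figure D4:**
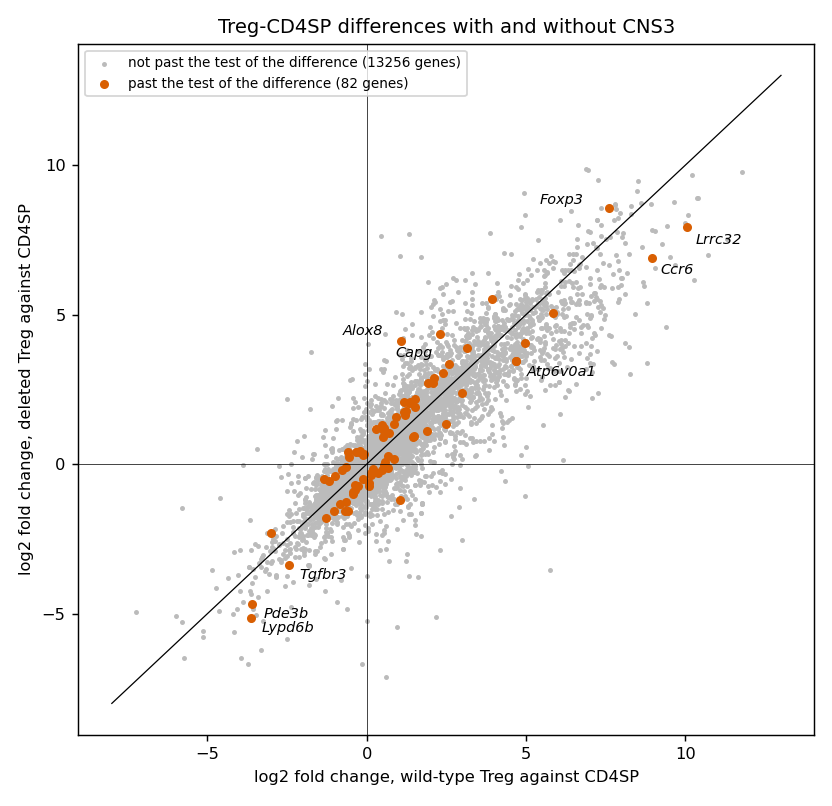
Log2 fold change of Treg against CD4SP in deleted libraries (vertical axis) against that in wild-type libraries (horizontal axis) for each of 13338 genes, with a line of equal change. Orange points are the 82 genes past the test of the difference between genotypes, with a median absolute difference of 0.187 over all genes.

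The difference between the 2 log2 fold changes was tested directly, and 82 genes (0.615%) passed, 42 (0.315%) in the positive and 40 (0.300%) in the negative direction. By over 1 log2 unit 12 genes (0.0900%) differed, 4 (0.0300%) positive and 8 (0.0600%) negative. In 44 of the 82 the deleted difference was wider, 29 for genes higher in Treg and 15 for genes lower. In 20 it was narrower, 14 for higher and 6 for lower genes, and in 18 the 2 fold changes had opposite signs. The number is sensitive to the fit: 3 genes passed (Alox8, Il18r1 and Lrrc32) when the share of reads in no gene entered as a covariate, 32 with only the thymic libraries, and 318 with DESeq2. Leaving out 1 library at a time gave 40 (without wild-type CD4SP library 2) to 162 genes (without deleted Treg library 4). Reads in no gene made up 46.3 to 49.3% in wild-type Treg libraries, 42.3 to 45.0% in deleted Treg, 42.4 to 45.4% in wild-type CD4SP and 44.0 to 45.3% in deleted CD4SP. The part of these reads in the 82 calls was not tested beyond the covariate fit. Myeloid marker sums were 1138 to 1876 CPM in deleted and 868 to 1047 CPM in wild-type Treg libraries. In CD4SP they were 532 to 709 CPM and 511 to 562 CPM. Double-positive thymocyte, erythroid, and stroma and epithelium sums were instead lower on average in deleted Treg than in wild-type Treg. The part of other cells in the 82 calls, Lgmn and Capg among them, was not tested. Of the 1100 genes called in wild type and not in deleted cells, 6 passed the test of the difference.

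Among the 28 lineage genes 4 passed that test. Lrrc32 had a narrower difference, 7.91 in deleted and 10.04 in wild-type cells (difference -2.13, SE 0.31, edgeR adjusted p = 0.000769). Its Treg levels overlapped, 298 to 377 CPM in deleted and 299 to 318 CPM in wild type, and its CD4SP levels were 1.12 to 1.84 CPM in deleted and 0.519, 0.303 and 0.107 CPM in wild type, with no overlap. With limma voom its adjusted p was 0.0673. Foxp3 had a wider difference, 8.58 against 7.59 (difference 0.98, SE 0.18, edgeR adjusted p = 0.00511). In CD4SP cells it had 1.07 to 1.91 CPM in deleted and 3.23, 3.38 and 3.49 CPM in wild-type libraries, and in Treg cells 446 to 614 CPM against 642, 643 and 671 CPM. With only the thymic libraries its adjusted p was 0.0502, with limma voom 0.152 and with the covariate 0.0875, against 3.87e-05 with DESeq2. Capg, an actin-capping protein (difference 0.76), and Icos (difference 0.48) were wider in deleted cells. Their Treg levels were 410 to 544 CPM in deleted and 319 to 348 CPM in wild-type libraries for Capg, and 592 to 668 CPM and 416 to 494 CPM for Icos.

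Other members of the lists past this test showed where the deleted difference departed from wild type. Ccr6 was narrower (6.91 against 8.94, difference -2.04, SE 0.37), with 2.0 to 5.77 CPM in deleted and 0.456 to 0.656 CPM in wild-type CD4SP. Its adjusted p was 0.00414, and 0.0559 with only the thymic libraries, 0.0739 with the covariate and 0.114 with limma voom. Without deleted CD4SP library 2 the difference was -1.58. Bcl2l11 was higher in wild-type Treg (log2 fold change 0.86) and not in deleted Treg (0.17), a difference of -0.69 (SE 0.13, edgeR adjusted p = 0.00557), with 48.2 to 55.8 CPM in deleted and 70.9, 81.8 and 72.9 CPM in wild-type Treg. Tgfbr3, Satb1, Themis, Cd28 and Pik3ip1 were lower in Treg in both genotypes and further apart in deleted cells, with differences of -0.92, -0.53, -0.54, -0.33 and -0.50. Il18r1, the IL-18 receptor chain, was further up in deleted cells (difference 0.67). With only the thymic libraries, Icos, Satb1, Themis, Cd28, Pik3ip1 and Il18r1 did not pass (edgeR adjusted p 0.0612, 0.0698, 0.0743, 0.156, 0.0614 and 0.125). Without Treg libraries 1 and 2, Themis had an adjusted p of 0.0637.

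**Figure D5:**
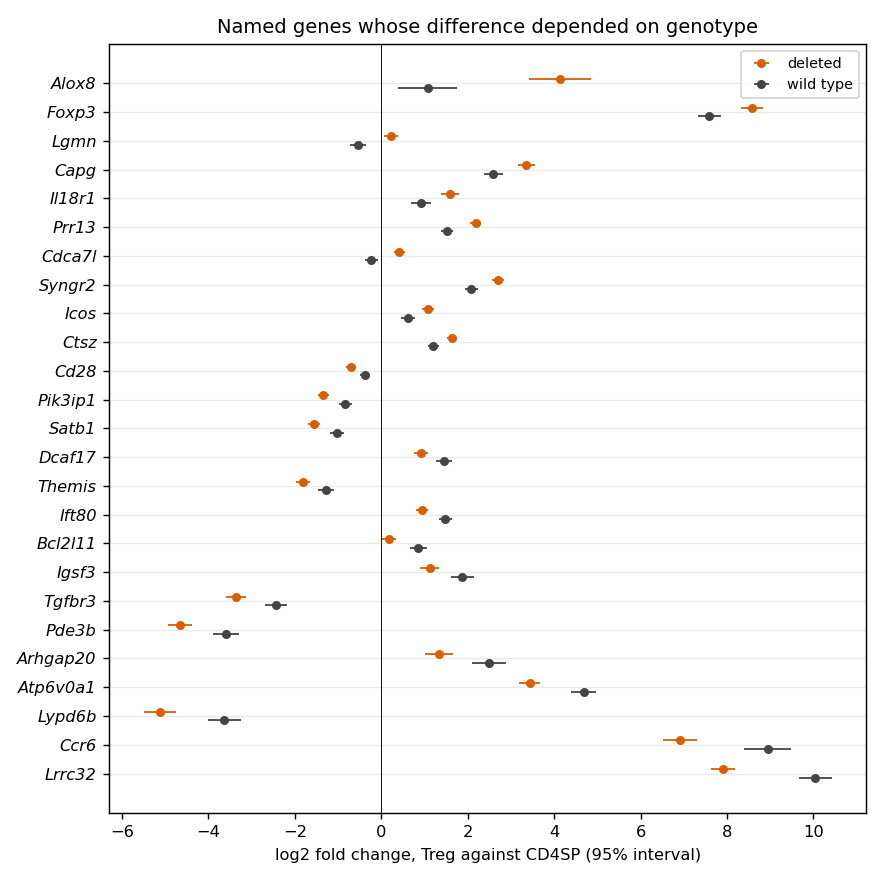
Log2 fold change of Treg against CD4SP with its 95% interval for the 25 named genes past the test of the difference between genotypes, orange for deleted and dark grey for wild-type libraries, ordered by the difference. Alox8, at the top, has the largest positive difference (3.06) and Lrrc32, at the bottom, the largest negative one (-2.13).

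Genes outside the lists that passed with the smallest p-values were Prr13, Atp6v0a1, Cdca7l, Syngr2, Lgmn, Lypd6b and Alox8. Prr13 had 559, 474, 535 and 499 CPM in deleted Treg and 104 to 121 CPM in deleted CD4SP, and its log2 fold change was 2.19 against 1.52 in wild type (difference 0.67, SE 0.09, edgeR adjusted p = 0.000769). Atp6v0a1, a subunit of the vacuolar proton pump, was narrower, 3.44 against 4.68, with 29.6 to 41.05 CPM in deleted and 46.0 to 52.8 CPM in wild-type Treg. Its CD4SP level was low and differed as well, with means of 3.43 CPM in deleted and 1.93 CPM in wild-type libraries. Alox8, a lipoxygenase, had 7.72, 2.90, 4.31 and 7.80 CPM in deleted Treg and 0.140 to 0.433 CPM in deleted CD4SP, where wild-type libraries had 1.36 to 3.21 CPM and 0.751 to 1.63 CPM, so its difference of 3.06 (SE 0.50) rests on low levels. With limma voom its adjusted p was 0.0643. Cdca7l and Lgmn, a lysosomal protease, changed sign between genotypes, at 0.41 and 0.23 in deleted cells and -0.23 and -0.54 in wild type. The deleted difference of Lgmn did not pass without Treg libraries 1 and 2 (edgeR adjusted p = 0.353). Of genes at over 1 log2 unit in wild type, Arhgap20, Igsf3, Dcaf17 and Ift80 were narrower in deleted cells, with differences of -1.16, -0.76, -0.53 and -0.54, and all 4 were still higher in deleted Treg. Dcaf17 did not pass with only the thymic libraries (edgeR adjusted p = 0.0555), nor Igsf3 without Treg libraries 1 and 2 (0.0759).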

How the data were processed

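RNA from sorted thymic and splenic CD4 T cells was amplified with a SMART kit and sequenced in pairs on an Illumina instrument, per the labels. The deposited values are raw read counts per gene symbol for each of 28 libraries. The submitters' processing notes name Trimmomatic, STAR, HTSeq and mm10. Their versions, settings and annotation: not given in the sources used here. Lines that name no gene were left out. Among them, reads in no gene made up 42.3 to 45.3% in the deleted thymic libraries, taken over reads in a gene, in no gene or ambiguous. SMART amplification without molecular identifiers means that counts are not independent molecules.

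All 28 libraries in 8 groups entered 1 edgeR 4.0.16 quasi-likelihood fit (R 4.3.3, TMM factors, filterByExpr, 20 residual degrees of freedom), which kept 13338 of 23420 genes. The contrasts were deleted Treg minus deleted CD4SP, the same in wild type, and the difference between them, with Benjamini-Hochberg adjustment over all genes tested and a threshold of 0.05. Fitting all groups shares 1 estimate of the spread (biological coefficient of variation 12.7%). No 2 libraries of a group agreed within sampling noise (chi-square per degree of freedom 7.14 to 37.6 over 12 pairs). The script was tested on simulated data.

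The comparison, the gene lists and the tests were chosen with earlier results of these data known. Genes named are Foxp3, the 12 largest rises and the 12 largest falls. The rises and falls reached a mean of 8 CPM in 1 population without overlapping libraries (predicted genes, small RNAs and receptor segments left out). All Treg lineage genes, the 4 smallest p-values per list and list members past the test between genotypes are named as well. So are 14 genes past that test, by the smallest p or, over 1 log2 unit in wild type, by the smallest deleted fold. Others were chosen after their values were seen. Coordinates are GENCODE M21 (GRCm38), matched for 21785 symbols directly and 1277 through an older symbol. Alternatives were other scalings, filters, tools (DESeq2 1.42.0, limma 3.58.1), a replicate block, a covariate, and libraries left out. Some list members are counted but not reported here by name.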

Additional observations from a re-analysis of the deposited data

Results flagged for a closer look

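In 286 groups of 4 deleted thymic libraries (named genes and marker sums), 33 held a library whose gap to the others passed Dixon's critical value of 0.829. Chance flags about 1 in 20 groups (5%) of independent, normally distributed values. Some levels here are near 0 counts, such as Gpr15 in CD4SP, and genes of 1 library are not independent. The 33 can therefore not be read against that rate. CD4SP library 2 was the one apart in 19 of the 33, and a Treg library in 12.

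CD4SP library 2 was highest for Gpr15 (0.108 CPM), Gbp1 (0.397), Ptrf (0.361), Il1r2 (1.37), Il2ra (133), Ebi3 (0.613), Fgl2 (4.40), Dusp4 (1.98), Spry1 (1.08), Ccr6 (5.77), Bid (37.3), Top2a (487) and Insig1 (16.2). It was lowest for Ntrk3 (10.2 CPM) and Tox (300). Its marker sums were highest for CD8 T cells (177 CPM), plasma cells (73.2), NK cells (18.8) and double-positive thymocytes (740). CD4SP library 4 was highest for Hepacam2 (0.0821 CPM) and lowest for Bcl2l11 (44.3).

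Among Treg libraries, library 1 was highest for Gpr15 (38.9 CPM) and Il1r2 (229), library 3 for Hepacam2 (11.4) and library 4 for Gbp1 (78.2) and Il18r1 (126). Treg library 2 was lowest for Elovl7 (0.143 CPM), Ggt5 (0.250), Capg (410), Fgl2 (45.3) and Pim2 (30.3), and library 3 for Bhlhe40 (162) and Sc5d (150).

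For 25 named genes the Treg against CD4SP difference itself differed between genotypes by edgeR's test, given here as deleted minus wild type on the log2 scale. It was positive for Foxp3 (0.98), Capg (0.76), Icos (0.48), Il18r1 (0.67), Prr13 (0.67), Cdca7l (0.64), Syngr2 (0.63), Lgmn (0.77), Alox8 (3.06) and Ctsz (0.44). It was negative for Lypd6b (-1.50), Pde3b (-1.08), Lrrc32 (-2.13), Themis (-0.54), Cd28 (-0.33), Tgfbr3 (-0.92), Satb1 (-0.53), Ccr6 (-2.04), Bcl2l11 (-0.69), Pik3ip1 (-0.50), Atp6v0a1 (-1.24), Dcaf17 (-0.53), Ift80 (-0.54), Igsf3 (-0.76) and Arhgap20 (-1.16).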

How the results depend on the processing

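The count of genes apart between deleted Treg and CD4SP ran from 5949 (genes at 5 CPM or more) to 7830 (replicate block) under other scalings, filters, tools, model terms and left-out libraries, except with a test against a 1.5-fold change, which called 2767 (wild type 2371, difference between genotypes 2, same call in both genotypes 2044 in place of 5335, list members 189 in place of 359). The replicate block raised the difference between genotypes to 174 genes. Same-numbered deleted Treg and CD4SP libraries had correlated deviations of -0.004, 0.188, 0.116 and 0.161. Treg libraries 2, 3 and 4 each correlated best with the CD4SP library of the same number. Treg library 1 correlated best with CD4SP library 2 (0.114). As not every number matched, the numbers were not taken as pairs, and the labels do not settle whether they are. The count of genes differing between genotypes was also 3 with the covariate, 32 with only thymic libraries and 318 with DESeq2, and the cause was not tested. Leaving out 1 library gave 6972 to 7384 genes in deleted cells, 5633 to 6019 in wild type, 4822 to 5345 with the same call, 345 to 359 list members, and 40 to 162 for the difference between genotypes (43 and 51 without wild-type Treg libraries 1 and 2, 125 without deleted CD4SP library 2). Of the 132 genes named by rule, 130 kept their direction and side of the threshold for the deleted comparison. This held in every one of 20 alternatives that gave a value, the 1.5-fold test not among them. Most of the 132 were picked for large fold changes or small p-values, so it does not measure how stable other genes are. Genes named outside those rules, such as Rag1, Gzma and Rela, lost their call in an alternative given above. Bcl2l11 passed with the 5 CPM filter (edgeR adjusted p = 0.0297) and without Treg library 1 (0.0388), and Lgmn lost its call in 5 alternatives. The alternative without Treg libraries 1, 2 and CD4SP library 2 together was chosen after seeing the data.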
